A study of Saccharomyces cerevisiae with 2 samples.

Results

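The 36 genes described here carry sulfate uptake and reduction, methionine and cysteine synthesis, the methyl cycle, methionine uptake and the regulation of these steps in Saccharomyces cerevisiae. They were chosen by name and role, with earlier results of these data known, from the 7126 filled rows of an expression table. All 36 had a row. The table itself gave 13 of the names, and the other 23 were found through their systematic names in the RefSeq annotation of the R64 reference genome. The table compares cultures of BL03-D-4 after 24 h in YPM and after 24 h in YPD2, with 1 library for each medium. BL03-D-4 is an engineered strain that makes the carotenoid lycopene. It derives from BY4742, a laboratory strain that needs histidine, leucine, lysine and uracil but not methionine. In both libraries the strain carried a deletion of GAL80, replaced by CrtB, CrtI and CrtE that each sit behind the HSP26 promoter. It also carried a truncated HMG-CoA reductase (tHMGR) behind the CIT1 promoter, integrated at another chromosomal site, and a deletion of ALD6. YPM (modified YPD) held yeast extract FM802 from Angel, tryptone and glucose, with potassium phosphate, the sulfates of magnesium, potassium and sodium, and a trace metal solution. YPD2 held the same tryptone and glucose with another lot of yeast extract from Oxoid, and none of the salts. Sulfate was therefore added in YPM, but the sulfate, the metals and the yeast extract changed together and cannot be told apart.

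Expression was given as TPM, an abundance scaled within each library and corrected for transcript length. TPM can be compared between genes of one library. The listed values summed to 925918 in YPM and 937091 in YPD2, so the totals were not equal. The depth behind TPM is unknown. Each medium has 1 library, so no replicate spread and no p-value can be given. Changes are log2 ratios of YPM to YPD2 on TPM plus 1, a scale on which low genes seem to change less than they did. A gene was called changed at a log2 ratio of 1, which is a fold of 2, in either direction. The strain labels were checked on marker genes. GAL80, ALD6, LYS2, HIS3, LEU2 and URA3 were listed at 0 in both libraries. MET17, which BY4742 keeps intact, was listed at 38.2 TPM in YPM against 24.1 TPM in YPD2.

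Yeast takes up sulfate through permeases, activates it with ATP and reduces it first to sulfite and then to sulfide. Sulfide is joined to a carbon chain made from homoserine to give homocysteine, from which methionine, S-adenosylmethionine (AdoMet) and cysteine are made. The activator Met4 drives the genes of this route. It does not bind DNA well by itself and is brought to promoters by Cbf1 or by the zinc finger proteins Met31 and Met32. When methionine, AdoMet or cysteine is plentiful, the ubiquitin ligase that contains Met30 holds Met4 inactive, and the route is known to be weakly expressed in rich media.

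The sulfur genes had no common direction between the media. Only the methionine permease gene MUP1 and the regulator gene MET32 were called higher in YPM, and only the AdoMet permease gene SAM3 was called lower. These 3 of 36 genes are 8.33%, and the called share was 8.43% over all 6350 rows that averaged at least 1 TPM. In the higher direction the share over all rows was 3.28%, and in the lower direction it was 5.15%. Among the 5762 protein-coding rows tested 6.58% were called, and among the 4717 protein-coding rows whose mean TPM lay in the range of the 36 genes, 4.52% were called. At a lower limit of 1.5-fold, 14 of the 36 genes (38.9%) were called, 7 higher and 7 lower, against 22.8% of all rows and 16.7% of the protein-coding rows in the same range of means. The median log2 ratio of the 36 genes was -0.08, beside -0.13 over all rows tested. Of the genes, 16 (44.4%) were above 0 and 20 below it, against 36.8% of all rows tested above 0. Of the 36 genes, 17 lay within 0.25 of no change on the log2 scale. When the YPM values were multiplied by 1.098 to set the median gene to no change, SAM2 and MET7 were the 2 genes of the 36 that changed sign.

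**Figure D1:**
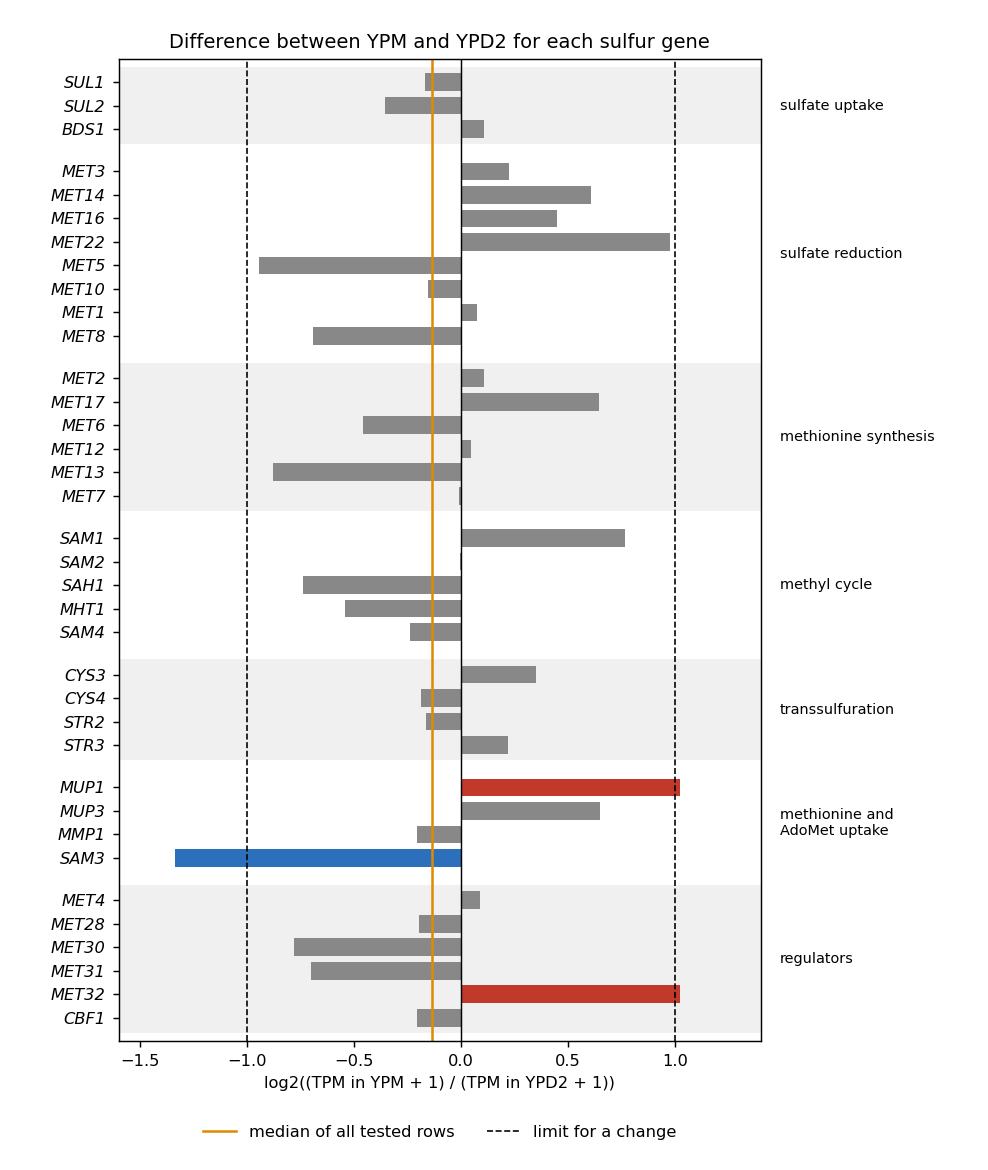
Log2 ratio of YPM to YPD2 for each of the 36 sulfur genes, ordered by role, on TPM plus 1. Each bar is 1 gene with 1 library per medium. The dashed lines mark the limit of 1 in either direction, the orange line the median of all rows tested (-0.13), and the coloured bars the 3 genes past the limit: MUP1 (1.02), MET32 (1.02) and SAM3 (-1.34).

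All 36 genes were listed above 0 in both libraries, and 35 had a mean of at least 10 TPM. Their median level was 34.6 TPM in YPM against 32.9 TPM in YPD2, although the median of their ratios was below 0. Over all rows tested the median was 41.5 TPM in YPM against 45.2 TPM in YPD2. Together the 36 genes made up 0.188% of all TPM in YPM and 0.211% in YPD2, a ratio of the summed values of 0.880. The adenosylhomocysteinase gene SAH1 was the most abundant of them in both libraries. The lowest were MET8 in YPM (10.8 TPM) and MUP3 in YPD2 (7.22 TPM).

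**Figure D2:**
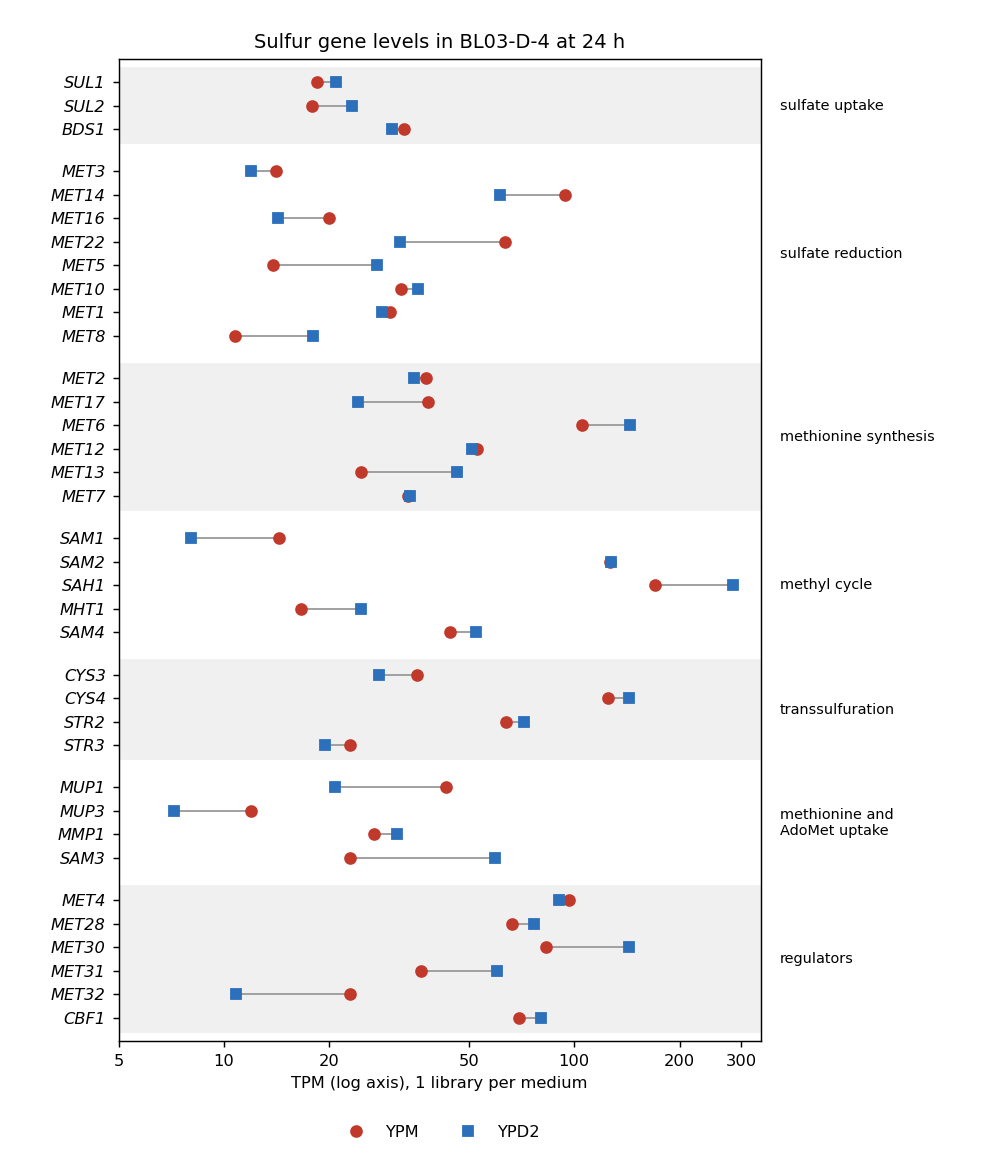
TPM of each sulfur gene in YPM (red circles) and YPD2 (blue squares) on a log axis, 1 library per medium, ordered by role. Levels ran from 10.8 to 170 TPM in YPM and from 7.22 to 284 TPM in YPD2, and in 17 of the 36 genes the log2 ratio lay within 0.25 of no change.

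**Figure D3:**
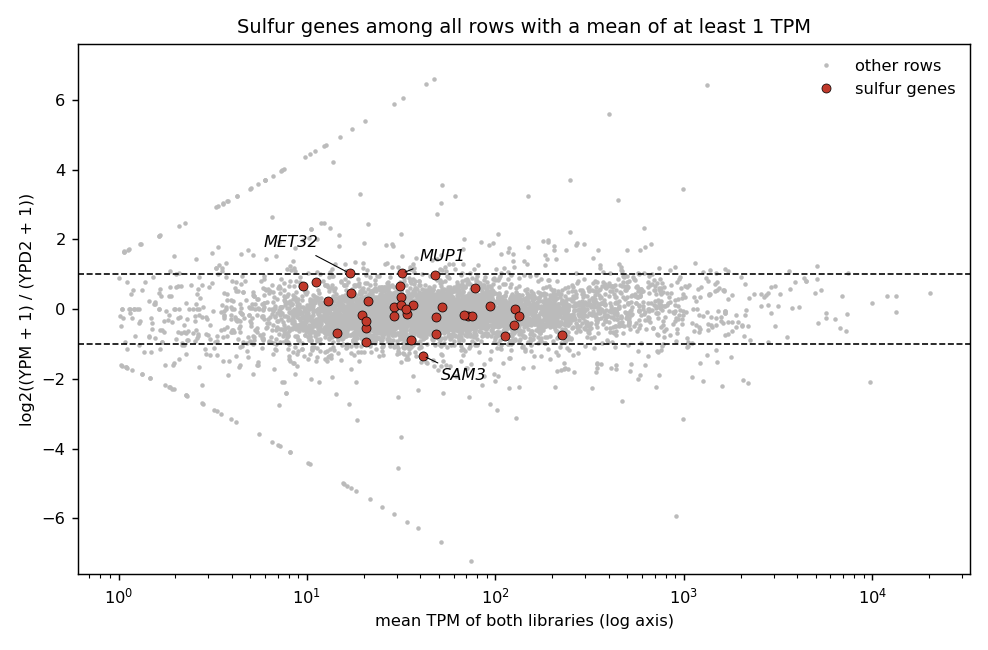
Log2 ratio of YPM to YPD2 against the mean TPM of both libraries (log axis) for the 6350 rows that averaged 1 TPM or more. The 36 sulfur genes (red) lie inside the cloud of the other rows (grey), and the 3 named genes lie past the dashed limits of 1. The diagonal rows of points are rows listed at 0 in 1 of the libraries, which include none of the sulfur genes.

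The sequences before most of the sulfur genes carry words that their regulators are known to bind, but MET7 and SAM4 had none of those searched. The stretches shown here are those of the 3 called genes and of 6 other genes at different steps of the route. The words searched were CACGTG for Cbf1, AACTGTG and CTGTGG for Met31 and Met32, and TGACTC for Gcn4, the general activator of amino acid synthesis. Both strands of the 500 bases before each start codon were read from R64, and the last bases of AACTGTG can overlap CTGTGG. Each line runs 5′ to 3′ on the strand of the gene, and capitals mark the words on either strand. The authors' genome build is not given in the sources used here, so the positions are those of R64 (chromosome, start, end).
MUP1, chrVII:598947-599151, plus strand: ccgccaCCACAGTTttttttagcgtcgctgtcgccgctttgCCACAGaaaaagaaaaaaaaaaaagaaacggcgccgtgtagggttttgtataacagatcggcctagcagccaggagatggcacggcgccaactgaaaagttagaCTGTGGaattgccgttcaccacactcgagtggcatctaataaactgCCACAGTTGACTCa
MET32, chrIV:964877-964949, minus strand: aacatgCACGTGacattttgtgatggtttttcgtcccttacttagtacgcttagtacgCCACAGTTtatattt
SAM3, chrXVI:22482-22686, plus strand: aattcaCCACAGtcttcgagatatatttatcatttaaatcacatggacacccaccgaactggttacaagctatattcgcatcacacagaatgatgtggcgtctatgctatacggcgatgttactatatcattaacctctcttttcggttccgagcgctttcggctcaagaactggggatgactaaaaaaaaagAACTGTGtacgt
MET22, chrXV:207299-207336, minus strand: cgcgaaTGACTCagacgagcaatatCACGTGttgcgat
MET16, chrXVI:877768-877816, minus strand: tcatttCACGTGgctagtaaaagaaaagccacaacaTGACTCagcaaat
MET17, chrXII:732236-732335, plus strand: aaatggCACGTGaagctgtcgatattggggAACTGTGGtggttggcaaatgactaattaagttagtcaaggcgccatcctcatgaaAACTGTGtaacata
SUL2, chrXII:323204-323271, plus strand: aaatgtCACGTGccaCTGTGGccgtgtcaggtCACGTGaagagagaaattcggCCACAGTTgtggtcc
MET5, chrX:683486-683624, minus strand: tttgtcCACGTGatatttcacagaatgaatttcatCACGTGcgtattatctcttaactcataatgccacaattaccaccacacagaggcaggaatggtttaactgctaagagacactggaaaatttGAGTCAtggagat
MHT1, chrXII:17777-17814, minus strand: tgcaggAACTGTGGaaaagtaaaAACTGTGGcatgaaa

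The Cbf1 word stood before 22 of the 36 genes (61.1%), against 6.23% of 6000 windows of the same length before nuclear protein-coding genes. AACTGTG stood before 17 of the genes (47.2%, against 5.90%) and CTGTGG before 22 (61.1%, against 13.2%). The Gcn4 word stood before 11 of them (30.6%, against 12.6%). A Cbf1 word together with a Met31 or Met32 word was found before 12 of the genes (33.3%), against 1.20% of all windows. The words did not sort the genes by their difference between the media. The 22 genes with a Cbf1 word had a median log2 ratio of 0.03 and the 14 without it -0.17, while the 23 with a Met31 or Met32 word had a median of -0.16 and the 13 without it -0.01. All 3 called genes had a Met31 or Met32 word, among them SAM3, which was lower in YPM, and MUP1 and MET32, which were higher. A word in such a window is a description and not a binding site, and a window can reach into a neighbouring gene. The Met31 and Met32 words between MMP1 and MHT1 stand before both genes and were counted for each.

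**Figure D4:**
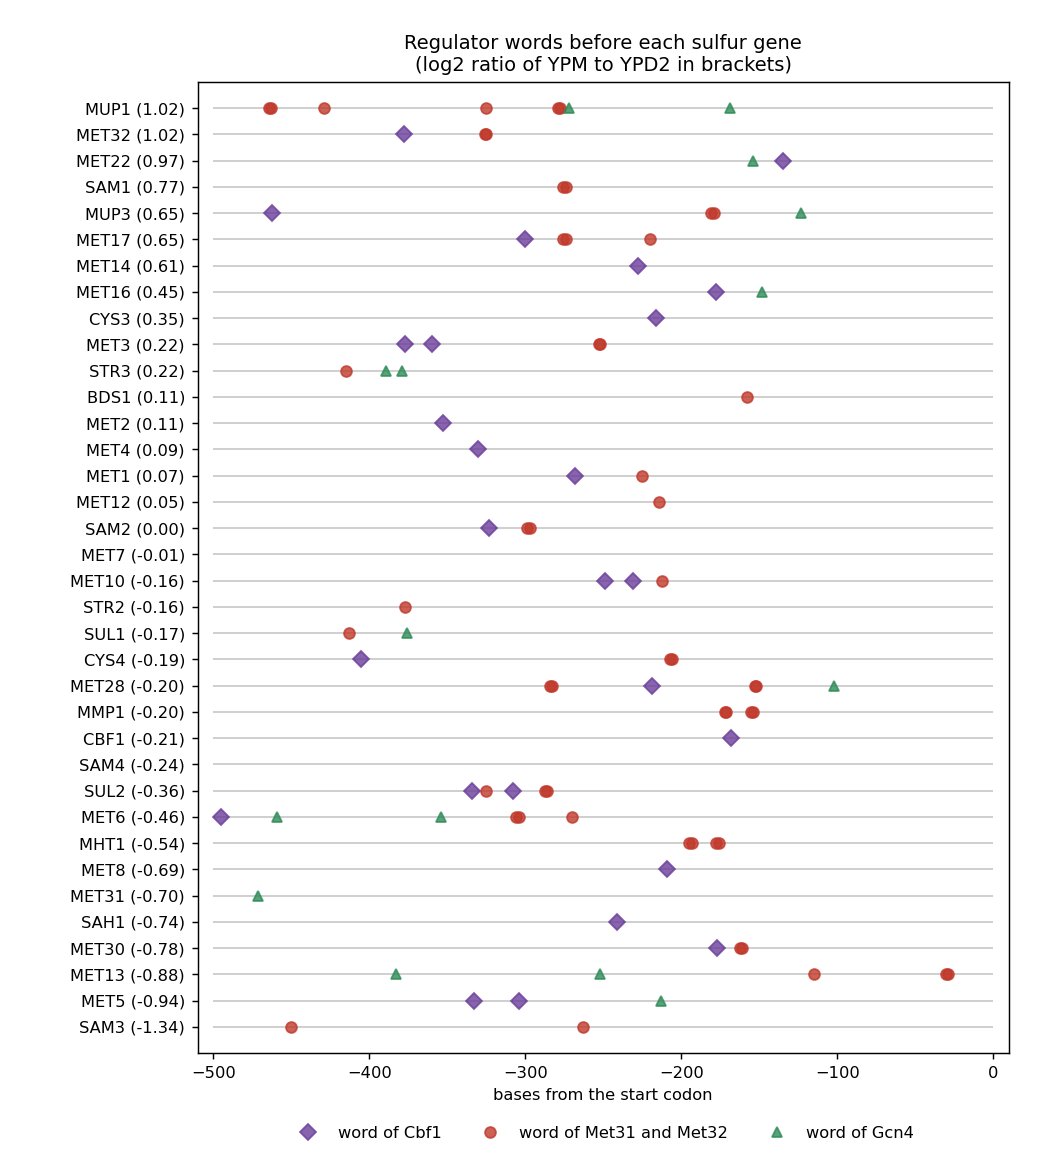
Positions of the regulator words in the 500 bases before the start codon of each sulfur gene, read on both strands of R64. Genes run from the highest log2 ratio of YPM to YPD2 (MUP1, 1.02) to the lowest (SAM3, -1.34), with the ratio in brackets, and words of Cbf1 (diamonds), of Met31 and Met32 (circles) and of Gcn4 (triangles) are spread along the whole order.

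Sulfate uptake genes were slightly lower or level in YPM, beside a median log2 ratio of -0.13 over all rows tested. The sulfate permease gene SUL1 (YBR294W) was listed at 18.5 TPM in YPM against 20.9 TPM in YPD2, a log2 ratio of -0.17. Its paralog SUL2 (YLR092W) was listed at 17.9 TPM in YPM against 23.2 TPM in YPD2, a log2 ratio of -0.36. Both permeases were near the same level within each library, and neither reached the limit. Their proteins, translated from R64, are identical at 67.5% of aligned residues, but the coding sequences share no word of 50 bases. BDS1 (YOL164W), a sulfatase that frees sulfate from organic sulfates, stood at 32.6 TPM in YPM against 30.1 TPM in YPD2. With the median gene set to no change, the log2 ratio was -0.04 for SUL1, -0.23 for SUL2 and 0.24 for BDS1.

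The genes that activate sulfate and reduce it to sulfite were all listed higher in YPM, though none reached the limit. MET3 (YJR010W), the ATP sulfurylase of the first step, was listed at 14.1 TPM in YPM against 11.9 TPM in YPD2, a log2 ratio of 0.22. MET14 (YKL001C), the kinase of the second step, was listed at 94.1 TPM in YPM against 61.4 TPM in YPD2, a log2 ratio of 0.61. MET16 (YPR167C), which reduces the activated sulfate PAPS to sulfite, was listed at 19.9 TPM in YPM against 14.3 TPM in YPD2, a log2 ratio of 0.45. Within either library, the kinase gene was thus listed well above the genes of the steps before and after it. MET22 (YOL064C), on chromosome XV from 206103 to 207176, encodes the nucleotidase that removes the by-product of the PAPS reductase. It was listed at 63.6 TPM in YPM against 31.9 TPM in YPD2, a log2 ratio of 0.97 and a plain ratio of TPM of 1.996. MET22 therefore lay just below the limit. It passed the limit when the YPM values were scaled so that the median gene had no change.

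The genes of sulfite reductase and of its cofactor siroheme did not follow this pattern. MET5 (YJR137C), the beta subunit, was listed at 13.8 TPM in YPM against 27.4 TPM in YPD2, a log2 ratio of -0.94. MET10 (YFR030W), the alpha subunit, was listed at 32.0 TPM in YPM against 35.7 TPM in YPD2, a log2 ratio of -0.16. The 2 subunits of one enzyme thus differed in their ratios, and MET10 was listed at 2.32 times MET5 in YPM and 1.30 times in YPD2. MET5 has the longest coding sequence of the 36 genes, 4329 bases. The siroheme genes also differed: MET1 (YKR069W) stood at 29.8 TPM in YPM against 28.3 TPM in YPD2, and MET8 (YBR213W) at 10.8 TPM in YPM against 18.0 TPM in YPD2. Over the 8 genes of sulfate activation and reduction, none was called, and 5 were above 0 with a median log2 ratio of 0.15. Of all rows tested, 36.8% were above 0.

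None of the 6 genes that lead from homoserine and sulfide to methionine was called, and their median log2 ratio was 0.02. MET2 (YNL277W), which acetylates homoserine, was listed at 37.7 TPM in YPM against 35.0 TPM in YPD2. MET17 (YLR303W), which joins sulfide to the acetylated homoserine, had a log2 ratio of 0.65 and the values given above. Its coding sequence overlaps the annotated gene YLR302C on the other strand by 12 bases. MET6 (YER091C), the methionine synthase that adds a methyl group to homocysteine, was listed at 105 TPM in YPM against 145 TPM in YPD2, a log2 ratio of -0.46. The enzymes at the 2 ends of homocysteine, Met17 before it and Met6 after it, thus had ratios of opposite sign.

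The genes of the methylenetetrahydrofolate reductases Met12 and Met13 differed from each other. Enzymes of this kind make the methyl donor used by Met6, and the supply by each of them was not measured. MET13 (YGL125W) was listed at 24.7 TPM in YPM against 46.3 TPM in YPD2, a log2 ratio of -0.88. MET12 (YPL023C) was listed at 52.8 TPM in YPM against 51.1 TPM in YPD2. MET12 held 68.1% of the sum of both genes in YPM and 52.5% in YPD2. Met12 and Met13 are identical at 42.5% of aligned residues, and no word of 50 bases is shared. MET7 (YOR241W), which adds glutamates to folates, was level at 33.6 TPM in YPM against 33.9 TPM in YPD2.

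In the methyl cycle, 4 of 5 genes were below 0 (3 with the median gene set to no change) and none was called, with a median log2 ratio of -0.24. Among all 6350 rows tested, 4004 were below 0. SAH1 (YER043C), which splits the product of AdoMet-dependent methylation, was listed at 170 TPM in YPM against 284 TPM in YPD2, a log2 ratio of -0.74. In absolute TPM this was the largest difference among the 36 genes. The AdoMet synthetase gene SAM2 (YDR502C) was level, at 127 TPM in both libraries. Its paralog SAM1 (YLR180W) was listed at 14.4 TPM in YPM against 8.05 TPM in YPD2, a log2 ratio of 0.77. SAM2 therefore exceeded SAM1 by 8.79 times in YPM and 15.8 times in YPD2. Summed over both genes, the log2 ratio was 0.06, so the AdoMet synthetase transcripts as a whole were level.

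Sam1 and Sam2 are identical at 91.9% of aligned residues, and a read from a shared stretch cannot be assigned to one of them by its sequence. The longest such stretch is 59 bases, at bases 700 to 758 of the SAM1 coding sequence and 706 to 764 of that of SAM2, and it is shown because it limits the values of both genes.
Shared by SAM1 and SAM2: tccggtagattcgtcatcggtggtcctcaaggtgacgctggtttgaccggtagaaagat
Of the 50-base words of SAM1, 20 (1.82%) occur elsewhere in R64, all of them in SAM2. Not all of these 20 words lie in the stretch shown. Most words of both genes thus tell them apart.

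The methyltransferases Mht1 and Sam4 recycle homocysteine with S-methylmethionine and AdoMet. MHT1 (YLL062C) was listed at 16.6 TPM in YPM against 24.6 TPM in YPD2, a log2 ratio of -0.54. SAM4 (YPL273W) was listed at 44.1 TPM in YPM against 52.3 TPM in YPD2, a log2 ratio of -0.24. The value of SAM4 is uncertain, because 19.9% of its 50-base words also occur in YMR321C, a partial copy on chromosome XIII, with a shared run of 210 bases. YMR321C was listed at 18.7 TPM in YPM against 3.86 TPM in YPD2. The sum of SAM4 and YMR321C was 62.8 TPM in YPM against 56.2 TPM in YPD2, a log2 ratio of 0.16, which is opposite in sign to that of SAM4 by itself. SAM1, SAM2 and SAM4 were the only genes of the 36 with a 50-base word elsewhere in R64.

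Transsulfuration, which moves sulfur between homocysteine and cysteine, had log2 ratios between -0.19 and 0.35 for its 4 genes, and none was called. Cysteine is made by Cys4 and Cys3 in turn. CYS4 (YGR155W) was listed at 125 TPM in YPM against 143 TPM in YPD2, and CYS3 (YAL012W) at 35.6 TPM in YPM against 27.7 TPM in YPD2. The route back to homocysteine runs through Str2 and Str3. STR2 (YJR130C) was listed at 63.9 TPM in YPM against 71.7 TPM in YPD2, and STR3 (YGL184C) at 22.9 TPM in YPM against 19.5 TPM in YPD2. In each direction the more abundant transcript was slightly lower in YPM and the less abundant one slightly higher, with differences that have no replicate error to be set against. With the median gene set to no change, CYS4 stood at -0.06 and STR2 at -0.03, beside 0.48 for CYS3 and 0.35 for STR3.

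The 4 uptake genes went both ways, with 1 called higher and 1 called lower in YPM. MUP1 (YGR055W), on chromosome VII from 599417 to 601141, encodes the high-affinity methionine permease. It was listed at 43.0 TPM in YPM against 20.7 TPM in YPD2, a log2 ratio of 1.02, and by level it ranked 14 among the 36 genes in YPM against 29 in YPD2. MUP3 (YHL036W), a methionine permease of low affinity, was listed at 11.9 TPM in YPM against 7.22 TPM in YPD2, a log2 ratio of 0.65. Both methionine permeases were therefore listed higher in YPM, and MUP1 held 78.3% of their sum in YPM and 74.1% in YPD2. With 5 TPM added instead of 1 TPM, MUP1 fell below the limit.

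SAM3 (YPL274W), on chromosome XVI from 22938 to 24701, encodes the AdoMet permease and had the lowest ratio of the 36 genes. It was listed at 22.9 TPM in YPM against 59.5 TPM in YPD2, a log2 ratio of -1.34 and a plain ratio of TPM of 0.385. This call held under each other pseudocount, filter and scaling tried. MMP1 (YLL061W), the S-methylmethionine permease, was listed at 26.9 TPM in YPM against 31.1 TPM in YPD2, a log2 ratio of -0.20. Mmp1 and Sam3 are identical at 70.7% of aligned residues and share no 50-base word. MMP1 was listed at 1.17 times SAM3 in YPM and 0.523 times SAM3 in YPD2, so the order of these paralogs differed between the libraries.

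The permease genes SAM3 and MMP1 each lie beside the methyltransferase gene that uses the imported compound. SAM4 starts 385 bases after the end of SAM3 on the same strand, and it did not share the difference of SAM3. The nearest annotated genes before SAM3, FDH2 and YPL276W on the same strand, were lower in YPM as well. FDH2 was listed at 23.6 TPM in YPM against 181 TPM in YPD2, a log2 ratio of -2.89, and YPL276W at 16.1 TPM in YPM against 88.8 TPM in YPD2, a log2 ratio of -2.40. FDH2 ends 3858 bases before SAM3. On the other side, 546 bases from SAM4, PBI1 on the opposite strand was listed at 785 TPM in YPM against 15.4 TPM in YPD2. A shared cause was not tested. The nearest genes beside the other called genes stayed below the limit. Beside MUP1, the log2 ratio was 0.006 for YGR054W and -0.05 for RSC1. Beside MET32, it was -0.50 for BTT1 and -0.13 for CHL4. MMP1 and MHT1 point away from each other and are separated by 342 bases, which hold both AACTGTGG words of the MHT1 stretch above. Both genes were listed lower in YPM, at log2 ratios of -0.20 and -0.54, and neither was called.

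Among the regulators, the paralogs MET31 and MET32 had ratios of opposite sign. MET32 (YDR253C), on chromosome IV from 963990 to 964565, was listed at 23.0 TPM in YPM against 10.8 TPM in YPD2, a log2 ratio of 1.02. MET31 (YPL038W) was listed at 36.5 TPM in YPM against 60.0 TPM in YPD2, a log2 ratio of -0.70. MET31 thus exceeded MET32 by 1.59 times in YPM and 5.55 times in YPD2. Met31 and Met32 are identical at 45.9% of aligned residues, and their coding sequences share no 50-base word. The sum of both was 59.5 TPM in YPM against 70.8 TPM in YPD2, a log2 ratio of -0.25. MUP1 and MET32 had the same log2 ratio to 2 decimals, and as plain ratios of TPM MET32 stood at 2.12 and MUP1 at 2.08. With 5 TPM added instead of 1 TPM, MET32 was no longer called.

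The other regulators were level or lower. MET4 (YNL103W), the activator itself, was listed at 96.3 TPM in YPM against 90.6 TPM in YPD2. MET28 (YIR017C), a cofactor of Met4, was listed at 66.6 TPM in YPM against 76.5 TPM in YPD2, and CBF1 (YJR060W), which also binds centromeres, at 69.5 TPM in YPM against 80.3 TPM in YPD2. MET30 (YIL046W), the F-box subunit that holds Met4 inactive, was listed at 83.0 TPM in YPM against 143 TPM in YPD2, a log2 ratio of -0.78. MET30 had the largest difference among the regulators in TPM but stayed below the limit. Activity of Met4 is set largely by ubiquitin, which these values do not measure.

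The methionine and cysteine content of the 36 proteins was counted from the codons of R64. Methionine made up a median of 1.67% of their residues, against 2.06% over 6002 nuclear protein-coding genes. Cysteine made up a median of 1.31%, against 1.18%, and the median of both together was 2.998%, against 3.37%. The lowest shares were those of Met17 (0.676%), Met10 (0.676%) and Cys3 (0.761%), and Cys3 has no cysteine codon. By role, the median was 2.20% for sulfate reduction and 4.23% for the uptake permeases. The highest share was that of Met30 (6.09%).

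A list of 42 further genes covered sulfur compounds, methionine salvage, polyamines, glutathione, thioredoxins, serine and homoserine, with amino acid permeases and GCN4. Of these 42 genes, 3 were called higher and 1 lower, which is 9.52% against 8.43% of all rows, and their median log2 ratio was 0.04. JLP1 (YLL057C), a dioxygenase that releases sulfite from sulfonates, was listed at 45.2 TPM in YPM against 12.1 TPM in YPD2, a log2 ratio of 1.81 and the largest rise of the list. YLL058W, named HSU1 in RefSeq, was listed at 41.8 TPM in YPM against 19.7 TPM in YPD2, a log2 ratio of 1.05. The branched-chain amino acid permease gene BAP2 was listed at 501 TPM in YPM against 241 TPM in YPD2, a log2 ratio of 1.05. BAT2, a branched-chain aminotransferase that can act in methionine salvage, fell most, with 209 TPM in YPM against 458 TPM in YPD2 and a log2 ratio of -1.12. GCN4, whose word stands before 11 of the 36 genes, was listed at 1066 TPM in YPM against 1631 TPM in YPD2, a log2 ratio of -0.61.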

How the data were processed

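RNA of BL03-D-4 was sequenced from polyA-selected TruSeq libraries, 1 per medium. The authors estimated expression with RSEM and deposited TPM, and the labels also name HISAT2 and StringTie. The build, annotation, strand setting and read length are not given in the sources used here. The deposited column MYPD was read as YPM, which the labels call modified YPD. The columns summed to 925918 TPM (YPM) and 937091 TPM (YPD2). The 4 emptied lines of the table were not analysed here.

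Rows that averaged 1 TPM or more were compared as log2((YPM + 1) / (YPD2 + 1)) and called at 1 in either direction. The study combined this fold limit with a limit on p, but with 1 library per medium no test was run here. The calling step was run on YPD2 values with planted fold changes, which checks its arithmetic and not the spread between cultures. Every gene of the list was named, and of the 42 further genes those called. GCN4, YMR321C and the neighbours of SAM3, SAM4, MUP1 and MET32, among them PBI1, FDH2 and YPL276W, were named after their values were seen. The genes and lists were chosen with earlier results of these data known. Paralog proteins were aligned with BLOSUM62. Alternatives were other pseudocounts, filters, scalings and fold limits, paralogs summed and, chosen after seeing the data, protein-coding rows only and SAM4 summed with YMR321C. Python 3.11.15, pandas 2.3.3, numpy 2.4.6, Biopython 1.88 and matplotlib 3.10.9 were used.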

Additional observations from a re-analysis of the deposited data

How the results depend on the processing

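With 5 TPM added, 354 rows were called in all and 1 of the 36 sulfur genes, SAM3, since MUP1 and MET32 fell below the limit. With a fold limit of 1.5, 1445 rows and 14 sulfur genes were called. Scaling YPM so that the median gene had no change moved the median log2 ratio of the sulfur genes to 0.048, put 18 of them above 0 and added MET22 to the calls, which rescaling without the 20 most abundant rows also did. That centring gave 256 higher and 255 lower rows, beside 208 and 327 as deposited. Summing SAM1 with SAM2 gave a log2 ratio of 0.062, beside 0.77 for SAM1. A pseudocount of 0.1, no filter and a mean of at least 10 TPM changed none of the calls among the sulfur genes. No paired analysis was possible because each medium has 1 library, and depth is unknown for TPM.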
